A study of Mus musculus with 20 samples.

Results

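The facilitative glucose transporters (the Slc2a or GLUT family) are membrane proteins that let hexoses move down their concentration gradient, without energy from ATP or a sodium gradient. Slc2a2 (GLUT2) is the main hepatocyte transporter and carries glucose in both directions. Slc2a4 (GLUT4) is the insulin-responsive transporter of muscle and fat, where insulin moves it from internal vesicles to the cell surface, and it is not a characteristic transporter of hepatocytes. Other members carry fructose (Slc2a5) or urate (Slc2a9).

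The 10 genes described here are Slc2a1, Slc2a2, Slc2a3, Slc2a4, Slc2a5, Slc2a6, Slc2a8, Slc2a9, Slc2a10 and Slc2a12, out of 55421 genes in the count table, and all 10 passed the filter of at least 10 counts in total over the libraries. The family was chosen by the measured guide effect on Slc2a4, so the values of Slc2a4 are given as a description and without a p-value. The other 9 were taken with it by family name.

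Bulk polyA RNA-seq was made from livers of wildtype mice, labelled female, in 4 groups of 5. All mice received, by retro-orbital injection, an AAV8 vector in which the hepatocyte promoter Tbg drives Cas9 of Staphylococcus aureus, with a guide RNA under the U6 promoter. The guide was directed at Hira (HIRA groups), which encodes a chaperone of the histone variant H3.3, or at Rosa26 (control groups), and livers were taken 3 weeks or 6 months later. The study's text names male mice for this time course, while a legend of the study names female mice, as the labels do. The labels give neither the strain nor the age at injection. The study's methods name C57BL/6J for the mice it bought, and Hira was targeted at 6 months of age in others of its experiments, while its account of this time course gives no age. The promoter limits Cas9 to hepatocytes, while a whole liver also holds cells of other types, and in such bulk samples fewer cells of a type and less RNA per cell cannot be told apart.

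Library totals ranged from 19916430 to 24079736 counts. The hepatocyte markers were abundant in every library (8 of 8 detected, summed 83192 to 160966 CPM, that is counts scaled to library size by TMM, with Alb the most abundant). Hira had 128 to 171 counts in the Rosa26 group and 87 to 127 in the HIRA group at 3 weeks, and 105 to 157 and 109 to 136 at 6 months, so at 6 months the transcript level did not separate the arms. Replicate 5 of the HIRA group at 6 months went against its sex label, with 9 Xist counts where the other 19 libraries had 6286 to 8436, and with 527 counts of the Y-linked gene Ddx3y. The main results that rest on this library are given with and without it.

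The coding sequence of Slc2a4 holds a short motif that the other members lack, and its start is printed with those of the 3 members usually grouped with it as class I transporters. The first 60 coding bases, 5′ to 3′, come from the GENCODE M21 transcripts on GRCm38. Capitals mark the in-frame codons for phenylalanine, glutamine, glutamine and isoleucine, a motif at the amino end of GLUT4 that takes part in its return from the cell surface to internal vesicles.
Slc2a1: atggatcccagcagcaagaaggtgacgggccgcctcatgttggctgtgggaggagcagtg
Slc2a2: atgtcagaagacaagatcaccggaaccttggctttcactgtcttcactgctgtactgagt
Slc2a3: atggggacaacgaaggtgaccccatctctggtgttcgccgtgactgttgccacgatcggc
Slc2a4: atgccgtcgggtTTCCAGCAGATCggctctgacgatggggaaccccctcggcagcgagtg
In Slc2a4 the motif took codons 5 to 8. None of the other 9 coding sequences held these codons in frame anywhere.

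Reads from similar paralogs can be hard to assign, so the longest stretches identical between members are shown as well. Slc2a4 shared 29 bases with Slc2a3 and 25 bases with Slc2a1, and the longest run with Slc2a2, the most abundant member, was 17 bases.
Slc2a3 and Slc2a4: gagctcttcagccagggcccccgcccagc
Slc2a1 and Slc2a4: ctctctccgtggccatcttctctgt
Slc2a2 and Slc2a4: tactattcaaccagcat
Between all other pairs the longest run was 20 bases, for Slc2a1 and Slc2a3. The counts of Slc2a12 are uncertain for another reason, since its exons overlap those of Tbpl1 on the opposite strand, which had 3873 counts against 65 for Slc2a12, and whether the counting used the strand is not stated.

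Slc2a4 (ENSMUSG00000018566.14, chromosome 11, 69942539 to 69948188 on the minus strand, GRCm38) was low in the control livers and higher in the HIRA livers. At 3 weeks the Rosa26 replicates 1 to 5 had 11, 15, 9, 42 and 31 counts, and the HIRA replicates had 168, 165, 81, 222 and 161. Scaled to library size, the control libraries lay between 0.416 and 1.89 CPM and the HIRA libraries between 3.92 and 9.72 CPM, with no overlap between the groups. The means were 1.01 ± 0.631 and 7.36 ± 2.11 CPM (SD, n = 5 each), a ratio of 7.27. The edgeR log2 fold change was 2.85 ± 0.49 (SE). The background is that 2.69% of the 22867 tested genes had groups that did not overlap in log2 CPM at 3 weeks, and since the family was chosen on this contrast nothing is read from the comparison.

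At 6 months the Rosa26 replicates 1 to 5 had 17, 28, 45, 33 and 39 Slc2a4 counts and the HIRA replicates had 77, 225, 132, 157 and 17. In CPM the controls lay between 0.726 and 1.94. HIRA replicates 1 to 4 had 3.01, 10.2, 5.47 and 7.68 CPM, all above every control, whereas replicate 5, the library that went against its sex label, had 0.864 CPM and lay inside the control range. The means were 1.46 ± 0.475 and 5.46 ± 3.71 CPM (SD, n = 5 each), a ratio of 3.74, and the log2 fold change was 1.90 ± 0.47 (SE), or 2.17 ± 0.38 without HIRA replicate 5. Of all tested genes, 3.15% had groups that did not overlap at 6 months.

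**Figure D1:**
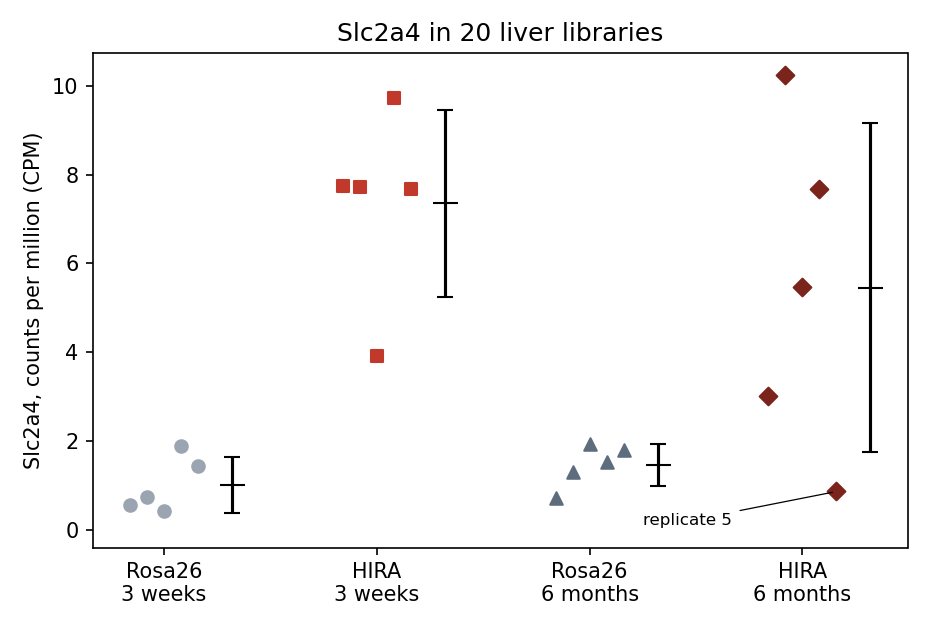
Slc2a4 in CPM (y axis) in each of the 20 libraries, by group (x axis), with the mean and SD of 5 libraries beside the points. All 5 HIRA libraries at 3 weeks (3.92 to 9.72 CPM) and 4 of 5 at 6 months (3.01 to 10.2 CPM) sit above all control libraries, and HIRA replicate 5 at 6 months (0.864 CPM) sits among the controls.

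The same library also had 1 count of Cdhr2, a cadherin of microvilli. The other 9 HIRA libraries had 45 to 229 Cdhr2 counts, and the 10 Rosa26 libraries had 1 to 8. For Slc2a4 and Cdhr2, HIRA replicate 5 at 6 months therefore lay with the control libraries. Its Hira level was 6.51 CPM, where the other 9 HIRA libraries had 4.15 to 5.95 CPM and the Rosa26 libraries at 6 months 4.82 to 7.32 CPM.

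Between the times, the differences in Slc2a4 were about as large as their standard errors. The log2 difference of 6 months against 3 weeks was 0.51 ± 0.51 in Rosa26 controls and -0.43 ± 0.43 in HIRA livers, or -0.16 ± 0.35 in HIRA livers without replicate 5. The guide effect at 6 months minus that at 3 weeks was -0.95 ± 0.67 on the log2 scale, and -0.67 ± 0.53 without that library.

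Per kb of exon the family spanned a wide range of levels in these livers. Slc2a2 stood first at 50.4 ± 10.9 CPM per kb (mean ± SD over all 20 libraries), 4.73 times Slc2a9, and the ranges of these 2 genes did not overlap. Slc2a2 held 60.6 to 74.3% of the summed level of the 10 members in a library. Slc2a9 followed at 10.6 ± 1.61 CPM per kb and Slc2a8, an intracellular transporter, at 7.01 ± 0.98. Slc2a9 lay above Slc2a8 in 19 of 20 libraries, although their ranges overlapped. Slc2a1, the transporter of the blood-brain barrier and of growing cells, had 3.33 ± 0.476 CPM per kb.

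Slc2a5 and Slc2a4 were neighbours in the middle of the order, at 1.19 ± 0.866 and 1.10 ± 0.975 CPM per kb, and did not differ beyond their spread over all libraries. Their order differed between the arms. Slc2a5 was the higher of the 2 in 10 of 10 Rosa26 libraries, and Slc2a4 was the higher in 8 of 10 HIRA libraries (5 of 5 at 3 weeks and 3 of 5 at 6 months). The family was chosen on the guide effect of Slc2a4, so this order describes that choice and is no further result. By the deposited FPKM values Slc2a5 and Slc2a4 changed places and the other 8 kept theirs. The lowest were Slc2a6 (0.355 CPM per kb), Slc2a3 (0.145), Slc2a10 (0.0621) and Slc2a12 (0.0356), and neighbouring ranges overlapped throughout this lower end. Slc2a4 made up 0.18 to 0.739% of the family's summed level in Rosa26 livers at 3 weeks and 1.81 to 2.87% in HIRA livers at 3 weeks. At 6 months it made up 0.251 to 0.869% in Rosa26 and 0.276 to 3.26% in HIRA livers, so that the ranges overlapped, the lowest HIRA value being that of replicate 5.

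**Figure D2:**
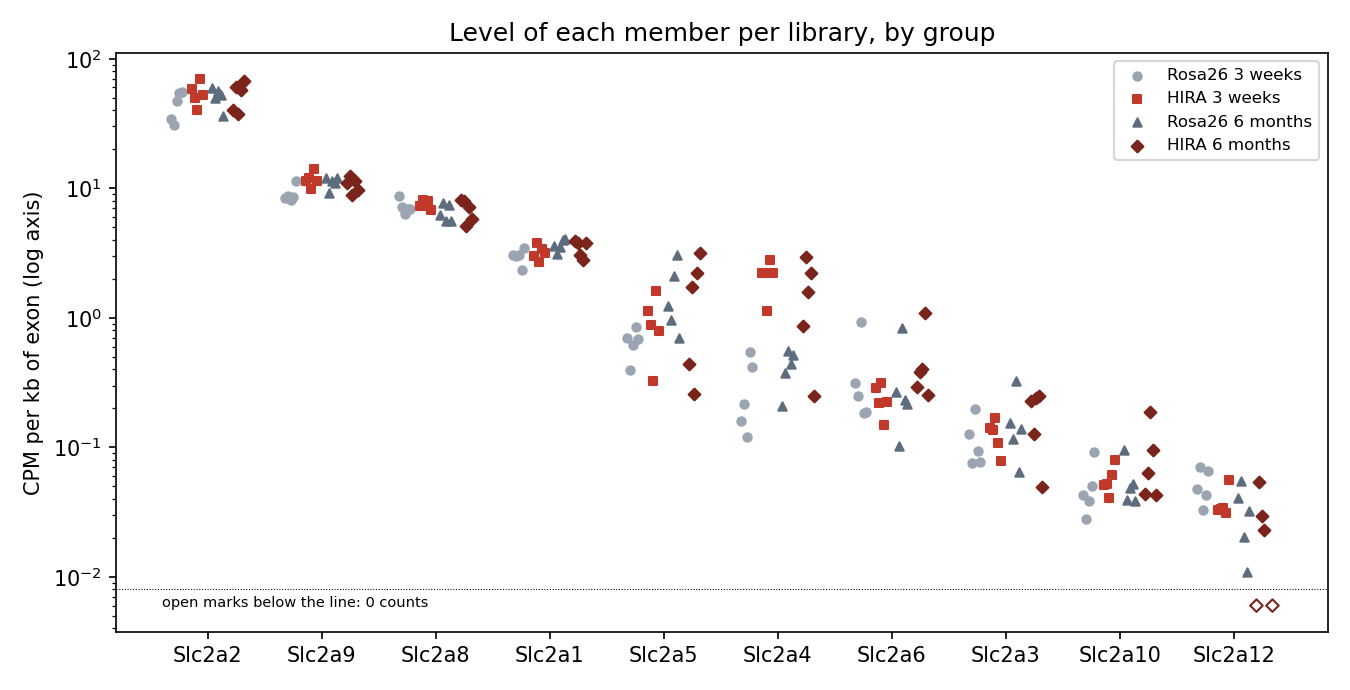
Level of each member in CPM per kb of exon (y axis, log scale) in every library, members ordered by their mean (x axis), with colour and marker giving the group and open marks standing for 0 counts. Slc2a2 leads in all 20 libraries (30.6 to 69.3 CPM per kb), and Slc2a4 is the member whose control and HIRA points separate at 3 weeks.

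The comparisons of the arms asked whether targeting Hira changed the other transporters. Across all genes, edgeR's quasi-likelihood test with Benjamini-Hochberg adjustment called 0.114% at 3 weeks and 0.332% at 6 months (adjusted p under 0.05 and absolute log2 fold change above 1). When 1 library at a time was left out, the log2 fold change of Slc2a4 ranged from 2.65 to 3.20 at 3 weeks and from 1.55 to 2.17 at 6 months. Of these 20 fits, 15 called Slc2a4 at 3 weeks and 3 called it at 6 months. Since this gene chose the family, these values are a description only.

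None of the other 9 members was called in either comparison. By unadjusted p, Slc2a9 had 0.00303 at 3 weeks (edgeR, 22867 genes tested) and the other 8 were above 0.05, and at 6 months all 9 were above 0.05. Over all genes 8.87% were under 0.05 at 3 weeks and 15.5% at 6 months. DESeq2 also called none of the 9.

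Slc2a9 (chromosome 5, 38349273 to 38503143, minus strand), a urate transporter, had the smallest p among these 9 at 3 weeks. The Rosa26 replicates 1 to 5 had 42.9, 44.2, 41.4, 43.5 and 57.9 CPM at 3 weeks, and the HIRA replicates had 58.1, 61.1, 50.0, 71.1 and 58.0 CPM. Thus 4 of the 5 HIRA libraries lay above every control, while HIRA replicate 3 lay below Rosa26 replicate 5. The log2 fold change was 0.38 ± 0.11 (SE) and did not pass after adjustment over all genes (edgeR adjusted p = 0.219). At 6 months the Rosa26 libraries had 46.4 to 61.3 CPM (median 57.8) and the HIRA libraries 45.2 to 63.4 CPM (median 55.4), so that the groups overlapped. The fitted log2 difference there was -0.06 ± 0.11 (adjusted p of edgeR, 0.873). The difference between the guide effects was -0.43 ± 0.16 on the log2 scale, and it did not pass the test (edgeR adjusted p = 0.688). Over all genes that interaction test called 0% of 22867, with 1514 at an unadjusted p under 0.05, and DESeq2 called none.

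Slc2a2 (chromosome 3, 28697903 to 28731359) had 197, 176, 271, 311 and 320 CPM in Rosa26 replicates 1 to 5 at 3 weeks and 333, 287, 232, 399 and 304 CPM in the HIRA replicates. The groups overlapped, with 2 HIRA libraries above all controls. The log2 fold change of Slc2a2 was 0.29 ± 0.19 at 3 weeks (edgeR adjusted p = 0.746) and 0.05 ± 0.19 at 6 months (adjusted p = 0.934). The difference at 6 months was thus small beside its standard error for the main glucose transporter of the tissue.

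Slc2a1 differed by 0.10 ± 0.12 at 3 weeks and -0.07 ± 0.12 at 6 months on the log2 scale, and Slc2a8 by 0.05 ± 0.12 and 0.08 ± 0.12 (edgeR adjusted p between 0.836 and 0.963). Slc2a1 lay between 182 and 350 counts and Slc2a8 between 367 and 661 counts over all libraries. The standard errors of Slc2a3, Slc2a5, Slc2a6, Slc2a10 and Slc2a12 were between 0.402 and 0.606. Slc2a10, the gene of arterial tortuosity syndrome, had 2 to 16 counts and Slc2a12 0 to 6 counts per library. The 2 libraries without a Slc2a12 count allow up to 0.117 and 0.152 CPM (3 counts each), a limit that covers counting error only.

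**Figure D3:**
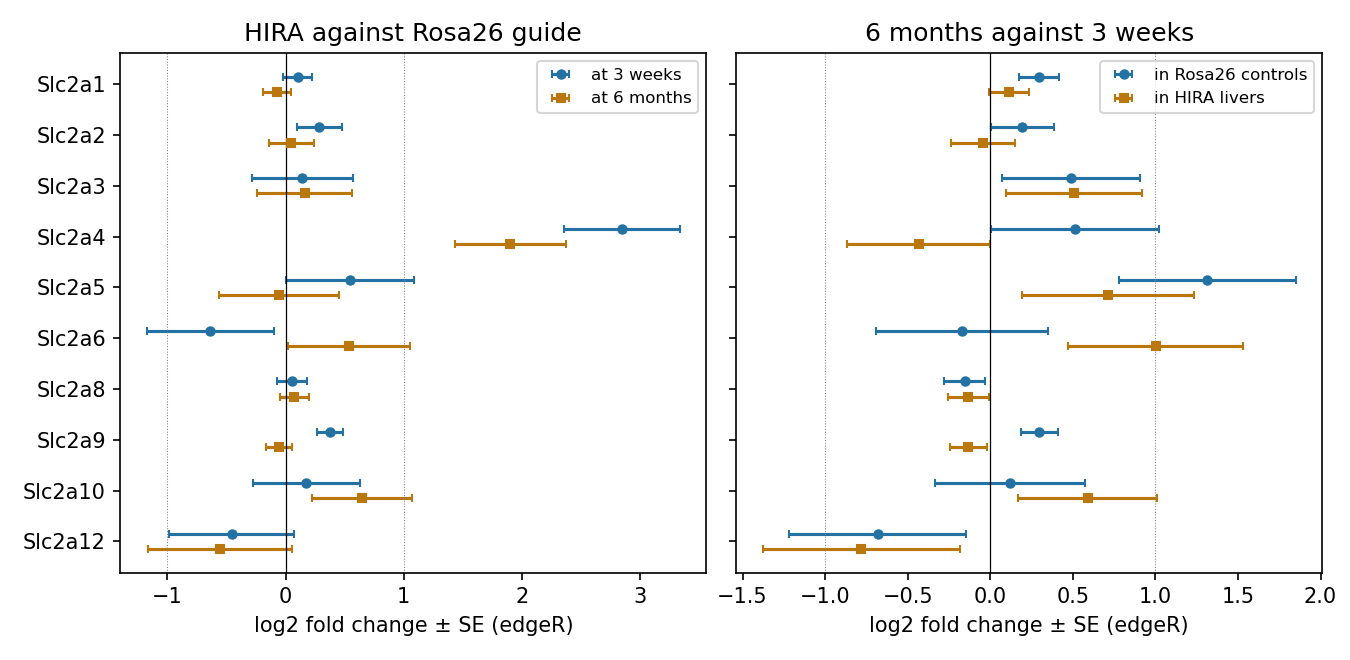
Log2 fold change with its SE from the edgeR fit (x axis) for each member (y axis), for HIRA against Rosa26 at both times (left) and for 6 months against 3 weeks in both arms (right), with dotted lines at the fold threshold of 1 on the log2 scale. Slc2a4, on which the family was chosen, lies at 2.85 and 1.90, and the other 9 members lie between -0.64 and 0.65 in the left panel.

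The comparison of 6 months with 3 weeks gives the change with time, in which age, time since injection and the day and hour of collection cannot be told apart. Across all genes it called 0.162% in Rosa26 controls and 0.0569% in HIRA livers, and it called none of the 9 members other than Slc2a4, by edgeR or by DESeq2. Groups did not overlap for 3.5% of all genes in the controls and for 1.47% in the HIRA livers, and for 0 of the 10 members in either. At an unadjusted p under 0.05, which 12.8% of all genes had, Slc2a1, Slc2a5 and Slc2a9 differed between the times in the controls, by 0.29 ± 0.12, 1.31 ± 0.54 and 0.30 ± 0.11 on the log2 scale, and did not pass after adjustment (edgeR adjusted p = 0.301, 0.293 and 0.25). Slc2a6 differed most in the HIRA livers, by 1.00 ± 0.53 (edgeR adjusted p = 0.612).

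Slc2a5 (chromosome 4, 150119283 to 150144169), the fructose transporter, varied 12.4-fold in CPM over the libraries. At 3 weeks the Rosa26 replicates 1 to 5 had 2.38, 1.35, 2.08, 2.89 and 2.33 CPM, and the HIRA replicates had 3.82, 3.00, 1.11, 5.47 and 2.67 CPM. At 6 months the Rosa26 replicates had 4.18, 3.26, 7.19, 10.5 and 2.39 CPM, and the HIRA replicates had 1.49, 5.88, 0.871, 7.58 and 10.8 CPM. The lowest and the highest library were thus both in the HIRA group at 6 months. The groups differed as well, with means of 2.20 CPM at 3 weeks and 5.50 CPM at 6 months in Rosa26 livers, and 3.22 and 5.33 CPM in HIRA livers. The guide effect at 6 months was -0.06 ± 0.51 on the log2 scale, and -0.49 ± 0.51 without HIRA replicate 5, the highest library (adjusted p of edgeR, 0.981 and 0.681).

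Slc2a5 and Slc2a2 varied together over the libraries (Pearson r = 0.755 in log2 CPM, n = 20, 0.788 after the group means were removed, and 0.724 without HIRA replicate 5 at 6 months). Both, and Slc2a9, also varied with Dbp, a clock output transcription factor whose level in liver swings over the day. Each of the 10 members was set against Dbp and against the summed macrophage markers described further on, 20 relations in all. They were chosen after values were seen, so no p-value is given, and the points share their library and its scaling. For Slc2a5 and Dbp r was 0.694 and Spearman's rho 0.805 over the 20 libraries, r was 0.828 with group means removed and 0.679 without the 2 libraries farthest from the Dbp median. For Slc2a2 and Dbp the values were 0.655, 0.720, 0.711 and 0.489. Leaving out HIRA replicate 5 at 6 months gave 0.660 for Slc2a5 and 0.621 for Slc2a2. For Slc2a9 and Dbp r was 0.668 (rho 0.591), 0.356 with group means removed, 0.563 without the 2 farthest libraries and 0.738 without that replicate.

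Dbp also moved with the arms, but not at both times. At 3 weeks it was 1.52 to 3.54 CPM in the Rosa26 libraries and 9.05 to 104 CPM in the HIRA libraries, and at 6 months it was 18.1 to 95.1 and 3.75 to 115 CPM. Of 16 clock genes, edgeR called 5 higher at 3 weeks (Dbp, Tef, Nr1d2, Per3 and Ciart, Dbp by 4.55 ± 0.79 on the log2 scale and with an adjusted p of 0.0251) and 0 at 6 months. When HIRA replicate 4 or 5 at 3 weeks was left out, 3 genes over all genes were called at 3 weeks. At most 3 of the 5 clock calls therefore remained in each of those fits. The list was chosen with earlier results known. Its median log2 fold change was 0.48 at 3 weeks beside -0.01 over all genes, and 0.01 at 6 months beside 0.03. In Rosa26 controls 4 of the 16 were called higher at 6 months than at 3 weeks (Dbp, Tef, Nr1d2 and Per3). Without Rosa26 replicate 1 at 3 weeks, 0 genes of all tested were called higher in that comparison, so these 4 calls were lost.

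For Slc2a4 and Dbp r was 0.530 over the 20 libraries (rho 0.490), 0.141 with group means removed, 0.393 without the 2 farthest libraries and 0.642 without HIRA replicate 5 at 6 months. Within the groups of 5 it was 0.984 in HIRA livers at 3 weeks, -0.0767 in HIRA livers at 6 months, and 0.238 and 0.278 in Rosa26 livers at 3 weeks and 6 months. At 3 weeks neither gene overlapped between the arms. Dbp had 1.52 to 3.54 CPM in Rosa26 and 9.05 to 104 CPM in HIRA libraries there, and Slc2a4 had 0.416 to 1.89 and 3.92 to 9.72 CPM. The 5 Rosa26 libraries at 6 months had 18.1 to 95.1 CPM of Dbp with 0.726 to 1.94 CPM of Slc2a4, and HIRA replicate 1 at 6 months had 3.75 CPM of Dbp with 3.01 CPM of Slc2a4. HIRA replicate 5 at 6 months had the highest Dbp, 115 CPM, with 0.864 CPM of Slc2a4. Within the HIRA group at 3 weeks replicate 3 was lowest and replicate 4 highest in both genes. The part of the hour of collection in the difference between the arms at 3 weeks was not tested.

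**Figure D4:**
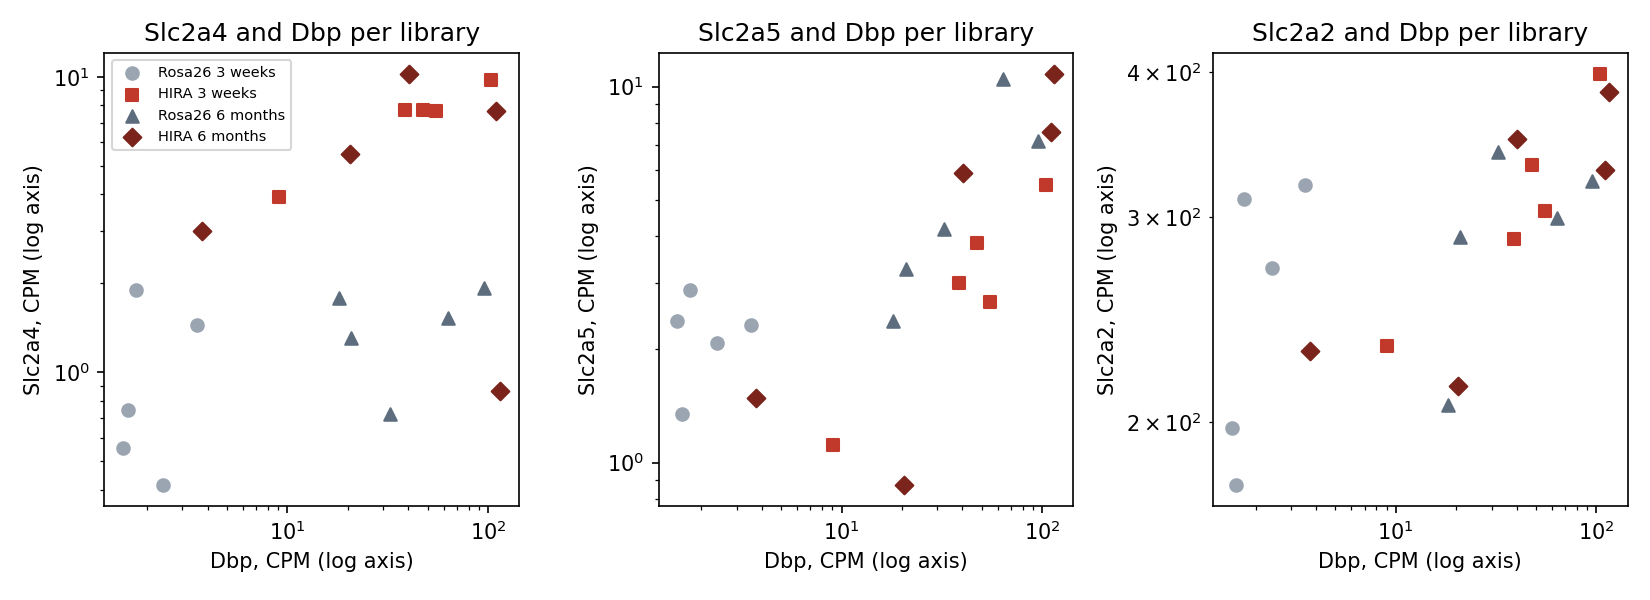
Slc2a4 (left), Slc2a5 (middle) and Slc2a2 (right) in CPM against Dbp in CPM, all on log axes, 1 point per library with colour and marker giving the group. Slc2a5 and Slc2a2 are higher where Dbp is higher (r = 0.694 and 0.655), while at 6 months the Rosa26 libraries lie at 18.1 to 95.1 CPM of Dbp with Slc2a4 at 0.726 to 1.94 CPM.

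Because Slc2a2 and Slc2a5 varied together, the stretch just before the start of each gene is printed. It comes from the RefSeq promoter table (GRCm38.p6, plus strand), which held 8 of the 10 members (not Slc2a3 and Slc2a4). Both stretches printed here end before the transcript start of both RefSeq and GENCODE. Capitals mark the GC box GGGCGG on either strand.
Slc2a2, chr3:28697653-28697902: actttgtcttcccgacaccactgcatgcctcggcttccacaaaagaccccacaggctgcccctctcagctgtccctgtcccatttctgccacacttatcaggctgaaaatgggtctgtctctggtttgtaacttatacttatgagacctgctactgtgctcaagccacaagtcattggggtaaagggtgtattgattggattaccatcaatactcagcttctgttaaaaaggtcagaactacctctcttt
Slc2a5, chr4:150119094-150119282: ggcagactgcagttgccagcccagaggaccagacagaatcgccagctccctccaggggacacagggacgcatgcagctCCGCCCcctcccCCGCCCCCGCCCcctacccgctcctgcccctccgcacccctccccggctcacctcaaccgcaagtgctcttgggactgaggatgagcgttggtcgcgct
Slc2a5 had 3 GC boxes in these 189 bases and Slc2a2 had 0 in 250. Over the full 250 bases before the RefSeq start, 4 of the 8 members (Slc2a1, Slc2a5, Slc2a6 and Slc2a10) held a GC box, as did 32.7% of 32851 promoters. The D-box that Dbp is known to bind (TTATGTAA or TTACGTAA) and the E-box of the clock (CACGTG), each searched on both strands, were in none of the 8 and in 0.931% and 6.02% of all promoters. The Slc2a9 window, chr5:38483386-38483635, lies inside the GENCODE gene, which spans 38349273 to 38503143 on the minus strand. A match or its absence in these windows is a description only.

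Slc2a3, a transporter of high affinity found in blood cells and neurons, and Slc2a6, found in leukocytes and spleen, varied together within the groups (r = 0.665, n = 20, and 0.689 with group means removed, or 0.711 without HIRA replicate 5 at 6 months). Slc2a6 had 64 counts in Rosa26 replicate 3 at 3 weeks, 62 in Rosa26 replicate 3 at 6 months and 71 in HIRA replicate 4 at 6 months, against 7 to 31 in the other 17 libraries. Slc2a3 had 31, 55 and 37 counts in the same 3 libraries and 7 to 42 in the others.

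The summed level of 8 macrophage markers (Clec4f the most abundant) was 547, 1297 and 801 CPM in these 3 libraries and 112 to 528 CPM in the other 17. The 6 neutrophil markers (Csf3r the most abundant) summed to 54.5, 30.3 and 14.7 CPM there, and to 4.52 to 14.8 CPM in the others. With the macrophage sum, r was 0.754 for Slc2a3 (rho 0.723, 0.844 with group means removed, 0.557 without the 2 farthest libraries) and 0.71 for Slc2a6 (rho 0.594, 0.811 and 0.760). Without HIRA replicate 5 at 6 months, which had the lowest macrophage sum, r was 0.685 for Slc2a3 and 0.794 for Slc2a6. None of the 8 macrophage and 6 neutrophil markers was called in any comparison. The part of these cells in the levels of Slc2a3 and Slc2a6 was not tested.

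**Figure D5:**
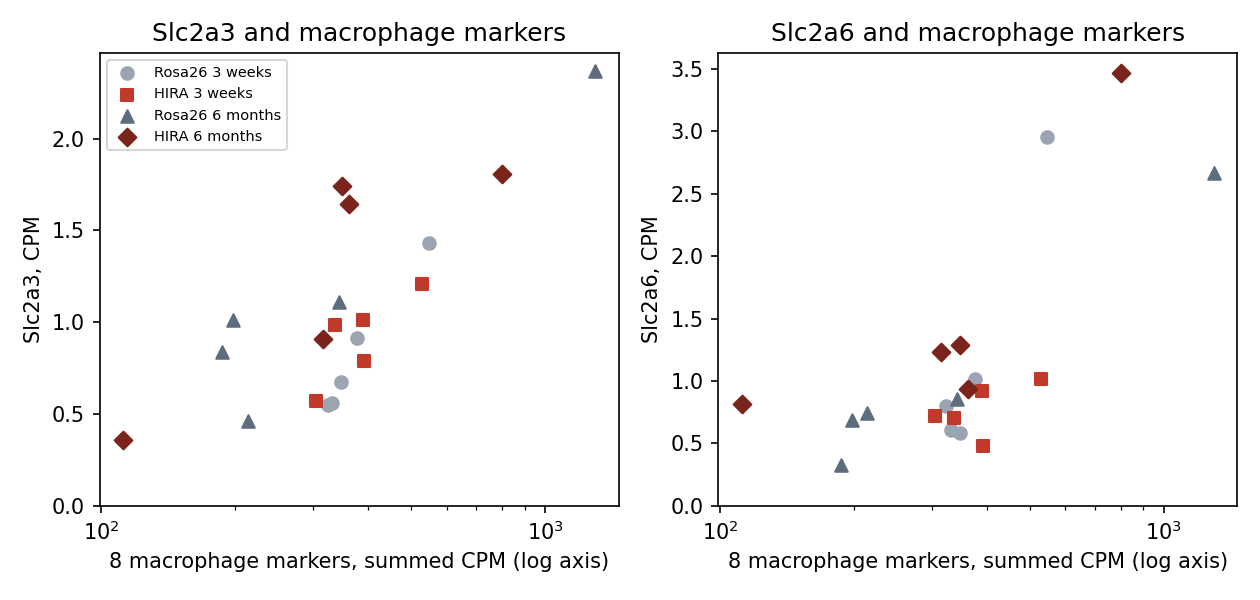
Slc2a3 (left) and Slc2a6 (right) in CPM (y axis) against the summed CPM of 8 macrophage markers (x axis, log scale), 1 point per library with colour and marker giving the group. The 3 libraries with Slc2a6 above 2 CPM have macrophage sums of 547, 801 and 1297 CPM.

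Since Slc2a4 is best known from muscle and fat, markers of both were examined beside it. The 10 skeletal muscle markers (Mylpf the most abundant) summed to 1.34 to 6.84 CPM in Rosa26 and 1.43 to 3.70 CPM in HIRA livers at 3 weeks, and to 1.44 to 3.05 and 1.05 to 2.10 CPM at 6 months. Acta1, Ckm, Myh1, Tnnc2, Mb, Myh2 and Actn3 averaged under 5 counts, and none was called. The part of muscle in the Slc2a4 level was not tested.

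Of the 10 adipocyte markers, Lep was at 0 in all libraries and Adipoq, Plin1 and Retn averaged under 5 counts. The sum was 84.1 to 107 CPM in Rosa26 and 97.6 to 126 CPM in HIRA livers at 3 weeks, and 90.1 to 107 and 117 to 246 CPM at 6 months, with Pnpla2, a triglyceride lipase also used by hepatocytes, the most abundant. The highest sum, 246 CPM, was in HIRA replicate 5 at 6 months, where Slc2a4 was lowest of its group, and the other 4 HIRA libraries at 6 months had 117 to 148 CPM. In that library Cidec, a lipid droplet protein, had 1193 counts and Cfd, the adipokine adipsin, 111 counts, where the other 4 HIRA libraries at 6 months had 53 to 69 and 0 to 3. Over the group Cidec differed by 2.80 ± 0.73 and Cfd by 4.77 ± 1.64 on the log2 scale, and neither passed (adjusted p of edgeR, 0.0597 and 0.151). Without that library Cidec differed by 0.39 ± 0.19 and Cfd by -0.095 ± 1.68 (adjusted p of edgeR, 0.280 and 0.985). Of the 9 tested markers 1 was called, Plin4, a lipid droplet coat protein, with a log2 fold change of 1.82 ± 0.33 at 6 months (adjusted p of edgeR, 0.0141) and 1.34 ± 0.26 without HIRA replicate 5 (adjusted p of edgeR, 0.0135). In HIRA livers Plin4 was also higher at 6 months than at 3 weeks, by 1.95 ± 0.34 (adjusted p of edgeR, 0.0264), and by 1.47 ± 0.26 without that library (adjusted p of edgeR, 0.0222). Pnpla2 had an adjusted p under 0.05 at 6 months without reaching the fold threshold, at 0.63 ± 0.11 (adjusted p of edgeR, 0.0141), or 0.58 ± 0.11 without that library (adjusted p of edgeR, 0.0137). In a fit of only the groups compared, 0 genes had an edgeR adjusted p under 0.05 for the guide effect at 6 months, so Plin4 and Pnpla2 did not pass there. The median log2 fold change of the 9 was 1.82 at 6 months beside 0.03 over all genes, which is the value of Plin4 itself, and it was 0.37 over the 8 tested without that library. Adipoq had at most 9 counts in a library, in HIRA replicate 3 at 3 weeks. That library also had 21 Cfd, 5 Plin1 and 5 Retn counts, where the other libraries at 3 weeks had 0 to 2 of each of these 4 genes. Its 81 Slc2a4 counts were the lowest of its group. The part of fat cells in the Slc2a4 level was not tested.

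The machinery that serves GLUT4 was measured with a list of 22 genes of its storage vesicles and of insulin signal relay. None was called in any comparison by both thresholds, against the shares given above for all genes. At 6 months 2 of the 22 had an adjusted p under 0.05 without reaching the fold threshold, where 1.31% of all genes had an adjusted p under 0.05 at any fold. Myo1c, a myosin that helps bring GLUT4 vesicles to the surface, differed by 0.51 ± 0.10 (edgeR adjusted p = 0.0150, or 0.57 with adjusted p = 0.00781 without HIRA replicate 5). Trip10 (CIP4), an adaptor of the insulin pathway, differed by 0.54 ± 0.12 (edgeR adjusted p = 0.0361, or 0.57 with adjusted p = 0.0306 without that library). Insr, the insulin receptor, differed by 0.03 ± 0.08 at 3 weeks and -0.05 ± 0.08 at 6 months. Irs2, an adaptor of that receptor, differed by -0.93 ± 0.26 and -0.65 ± 0.26 and did not pass (edgeR adjusted p = 0.176 and 0.222). The list's median log2 fold change was 0.03 at 3 weeks and -0.02 at 6 months.

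Of 17 transcription regulators known to act on Slc2a4, none was called by both thresholds. Esr1, the estrogen receptor, had the only adjusted p under 0.05, at 6 months, where it differed by -0.96 ± 0.20 (adjusted p of edgeR, 0.0236), or by -0.79 ± 0.17 without HIRA replicate 5 (adjusted p of edgeR, 0.0206). Klf15 differed by 0.13 ± 0.15 and -0.01 ± 0.15, and Mef2a, a factor of the MEF2 family that binds the Slc2a4 promoter in muscle, by 0.08 ± 0.09 and 0.18 ± 0.09. Of 4 genes of transporter turnover, Arrdc4, an arrestin-like protein that lowers glucose uptake, differed by -0.64 ± 0.14 at 6 months (adjusted p of edgeR, 0.0263, under the fold threshold), or by -0.58 ± 0.14 without HIRA replicate 5 (adjusted p of edgeR, 0.0380). Its relative Txnip differed by 0.01 ± 0.27 at 3 weeks and 0.31 ± 0.27 at 6 months. Among the 8 hepatocyte markers none was called, and Asgr1, a hepatocyte lectin, had an adjusted p under 0.05 at 6 months without reaching the fold threshold, at -0.34 ± 0.08 on the log2 scale (adjusted p of edgeR, 0.0470), or -0.36 ± 0.09 without HIRA replicate 5 (adjusted p of edgeR, 0.0416).

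The steps that follow transport were also measured. None of the 18 genes of glucose phosphorylation and release was called in any comparison, among them G6pc, which frees glucose from its phosphate (-0.78 ± 0.34 at 3 weeks and 0.36 ± 0.34 at 6 months, edgeR adjusted p = 0.496 and 0.667). None of the 6 genes of fructose use, the 6 tested of urate handling and the 18 fasting and feeding genes was called either. The 2 family members outside the 10 were low, Slc2a7 with 1 count over all libraries and Slc2a13 with at most 30 counts in a library, and Slc2a13 was not called. Of 7 other hexose transporters 5 were tested and none was called. Among them Slc5a9, of the sodium-coupled family, had at most 1 count in a Rosa26 library and at most 7 in a HIRA library.

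Among the 12903 genes with a mean of at least 1 CPM, those whose level followed Slc2a4 most closely over the 20 libraries were sought by Pearson r in log2 CPM, as a description. The highest was Slc44a3, a choline transporter-like gene, with r = 0.860, followed by the cytokine Il18 (0.837). Also among the first 10 were Cdhr2 (0.813), Lonrf1 (0.808), Tmem200b (0.799), Ap3m1 (0.798), Pip5k1c (0.798), Midn (0.797) and Ctdsp2 (0.795), and 1 unnamed gene model. With the group means removed the r of these 10 lay between 0.433 and 0.693, and none of them kept a place in the first 10. By Spearman's rho 6 of the 10 stayed in the first 10, and without HIRA replicate 5 at 6 months 5 did. The family member nearest to Slc2a4 was Slc2a9, at r = 0.607 and at place 256.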

How the data were processed

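The authors aligned reads to mm10 (the assembly GRCm38) and deposited raw counts per gene and FPKM values. The labels name STAR, HTSeq and Cufflinks without roles, and the study's methods name HOMER for counting. The library kit keeps the strand, and the strand setting of the counting is not given in the sources used here. The deposited counts were fitted with edgeR 4.0.16 in R 4.3.3 (quasi-likelihood test, TMM scaling, 1 mean for each of the 4 groups over all 20 libraries), on genes with at least 10 counts in total. Adjusted p-values are Benjamini-Hochberg over 22867 genes, and the fit was tested on simulated data. Log2 CPM used a prior count of 2, and lengths are exon unions of GENCODE M21, which matched 98.5% of identifiers. Alternatives were DESeq2 1.42.0, other filters, a replicate block, fits of the compared groups alone, leaving out each library, and limma 3.58.1 on log2(FPKM + 1).

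The members, gene lists and tests were chosen with earlier results of these data known. The genes named are the 10 members, Hira, up to 4 genes in each direction of each list past both thresholds, each cell list's most abundant gene and the 10 genes most like Slc2a4. Others were named after their values were seen. The labels do not say that each library came from its own mouse, so p-values measure the spread between these libraries, and 0 pairs held identical values. One gene of the lists is not reported here. The values of adipocyte markers without HIRA replicate 5 at 6 months were added after seeing the data.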

Additional observations from a re-analysis of the deposited data

Results flagged for a closer look

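Within the 40 sets of 5 libraries (10 members in 4 groups), 3 libraries lay far from the other 4 of their group in log2 CPM, with a gap over 0.71 of the group's range, and chance gives such a gap in about 1 set in 20. Slc2a4 in HIRA replicate 3 at 3 weeks was the lowest of its group, at 2.00 on the log2 CPM scale (81 counts). Slc2a9 in Rosa26 replicate 5 at 3 weeks was the highest of its group, at 5.86 (1244 counts). Slc2a12 in HIRA replicate 5 at 3 weeks was the highest of its group, at -1.60 (5 counts, where the other 4 libraries had 3). The cause was not tested.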

How the results depend on the processing

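The other 9 members were called in 0 fits under every alternative run. Slc2a4 chose the family, so whether it was called is a description of those values. The number of members called at 3 weeks (1, Slc2a4) lay between 0 and 1 when 1 library at a time was left out, and was 0 without Rosa26 replicate 1, 2 or 3 or HIRA replicate 4 or 5 at 3 weeks. At 6 months (1, Slc2a4) it was 0 with the replicate block, 0 in a fit of only the groups compared and 0 with limma on FPKM, and lay between 0 and 1 when 1 library was left out, being 1 only without Rosa26 replicate 3 or 4 at 3 weeks or HIRA replicate 5 at 6 months. The labels do not say whether same-numbered libraries shared more than a number. The correlation of their deviations was -0.309 to 0.335, above 0.1 in 8 of 20 pairs, and 2 of 10 libraries matched their own number best. For replicate 3 it was 0.295 and 0.296 between the arms at 3 weeks and 6 months. By time it was 0.335 in Rosa26 livers and 0.0165 in HIRA livers for that number. With the replicate block the Slc2a4 log2 fold change was 2.91 at 3 weeks and 1.80 at 6 months, and it changed no other call among the members.

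With limma on log2(FPKM + 1), a scale that compresses low levels by construction, the Slc2a4 log2 fold change was 1.47 at 3 weeks and 0.90 at 6 months. The sign turned there for Slc2a5 at 6 months (0.10), for Slc2a10 at 3 weeks (-0.013) and for Slc2a10 by time in Rosa26 livers (-0.047), and the cause was not tested. Leaving out 1 library at a time turned the sign of 8 differences, none of them called. At 6 months these ranged from -0.053 to 0.15 for Slc2a2, from -0.038 to 0.59 for Slc2a3, from -0.49 to 0.31 for Slc2a5 and from -0.12 to 0.0033 for Slc2a9. At 3 weeks the range was -0.81 to 0.034 for Slc2a6. By time in Rosa26 livers it was -0.86 to 0.50 for Slc2a6 and -0.18 to 0.44 for Slc2a10, and by time in HIRA livers -0.15 to 0.067 for Slc2a2. Depth limits Slc2a10 and Slc2a12 most, at no more than 16 and 6 counts in a library.

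Over all genes, the fit called 26 at 3 weeks, 76 at 6 months, 37 by time in Rosa26 livers and 13 by time in HIRA livers. DESeq2 called 69, 127, 156 and 74, fits of only the groups compared called 61, 0, 67 and 8, and limma on FPKM called 11, 18, 9 and 3. At 6 months the fit of only the groups compared had 0 genes with an adjusted p under 0.05 at any fold, so none of the list genes named above passed there. The replicate block gave 61 and 26 by time, and no filter on low counts gave 25 by time in HIRA livers. Leaving out 1 library gave 3 to 43 at 3 weeks, 18 to 109 at 6 months, 1 to 83 by time in Rosa26 livers and 5 to 25 by time in HIRA livers, where the lowest count of a range came from leaving out HIRA replicate 4 or 5 at 3 weeks, Rosa26 replicate 4 at 6 months, Rosa26 replicate 1 at 3 weeks, and HIRA replicate 2, 4 or 5 at 3 weeks.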
